A study of Mus musculus with 6 samples.

Results

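The transcripts described here are the non-coding RNAs, annotated as such by RefSeq, that were expressed in cortical astrocytes. A row of the expression table was taken when its RefSeq identifiers all began with NR_ (non-coding) and none with NM_ (protein-coding), and when its mean level over the 6 libraries was at least 5 RPKM, the unit that scales reads to the length of a transcript and to the mapped reads of its library. Rows for microRNAs, small nucleolar RNAs, Cajal body RNAs and ribosomal or other RNAs with symbols in Rn were left out, as were 6 imprinted transcripts (Meg3, Rian, Mirg, H19, Nespas and Kcnq1ot1). This left 254 members of 1847 eligible non-coding rows, in a table of 43383 rows. The members were thus chosen by their mean RPKM over all 6 libraries, and the levels are given as a description only. The difference between layers was not used in the choice.

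Long non-coding RNAs are transcribed and spliced like mRNAs but are not known to be translated. Some, such as Malat1 and Neat1, build or fill nuclear bodies, some are the precursors from which microRNAs or small nucleolar RNAs are cut, and many start beside or run antisense to a protein-coding gene. A host transcript's small RNA is released by processing and is not read out by a library of this kind, which copies polyadenylated RNA.

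Astrocytes were sorted as GFP-positive cells from the somatosensory cortex of Aldh1l1-eGFP mice, males 4 weeks of age, after the cortex had been cut into an upper piece (layers II to IV) and a deep piece (layers V and VI). There were 3 libraries of upper-layer astrocytes (ULAs) and 3 of deep-layer astrocytes (DLAs), and libraries with the same replicate number were taken as 1 brain. Layer I with the overlying meninges, the white matter of the corpus callosum and some tissue at the boundary of layers IV and V had been discarded. All 6 libraries carry the same transgene, in which the Aldh1l1 promoter drives GFP, so a cell entered a library only through the activity of that promoter. The steps of the RPKM values in short rows put the depth of the ULA libraries at 24.4 to 26.7 M reads and that of the DLA libraries at 19.7 to 29.6 M reads. No value of a member rested on fewer than 33 reads, and the median over the members was 468 reads a library. The counts behind the values give precision for counting only.

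The summed RPKM of 8 astrocyte markers ran from 10382 to 11038 in ULAs and from 9422 to 10399 in DLAs. Most of that sum was Aldoc, Slc1a3 and Gja1. Only Gfap of the 8 passed, higher in DLAs (limma, adjusted p = 0.005561). Slc1a3 was higher in the ULAs of every brain but did not pass (limma, adjusted p = 0.05536). The summed level of 8 oligodendrocyte markers was 89.7, 86.7 and 178 RPKM in ULAs of brains 1, 2 and 3, and 176, 203 and 279 in the DLAs. It was higher in the DLAs of every brain, and 6 of the 7 oligodendrocyte markers tested were higher in DLAs (limma, adjusted p under 0.05), with none of the 8 at 0 in all libraries. The sums of 4 oligodendrocyte precursor markers were 5.37 to 6.11 in ULAs and 6.29 to 19.6 in DLAs. Most of each sum was Olig2, at 5.18, 4.91 and 5.33 in ULAs and 19.06, 5.86 and 9.06 in DLAs. Cspg4 went the other way in every brain, and Pdgfra and Gpr17 were at most 0.07. The sums of 8 neuronal markers were 8.51 to 9.11 and 6.31 to 8.31. Those of 6 microglial markers, mostly P2ry12, were 12.9 to 13.8 and 8.58 to 11.7. Those of 5 endothelial markers were 0.60 to 0.87 and 0.25 to 2. The precursor and microglial sums thus rest mainly on 1 gene each. The part of these other cell types in the differences below was not tested. In sorted populations, fewer cells of a type and less RNA per cell cannot be told apart.

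Several members hold microRNA genes on their own strand, and their mature sequences, as RefSeq gives them for GRCm38.p6, show which small RNAs these transcripts carry. In all, 13 members held 18 microRNA rows and 10 members held 13 rows of small nucleolar or Cajal body RNAs on the same strand. The counts include Mir1982 in the row of Oaz1-ps, which lies on the protein-coding gene Oaz1, as described below. The seed, bases 2 to 8, which pairs with the target mRNA, is in capitals. The sequences shown are those of the best-known hosts and of Sox2ot, whose layer difference is described further on.
miR-9-5p, in AI854517 (Mir9-3hg): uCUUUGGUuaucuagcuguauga
miR-9-3p, in AI854517 (Mir9-3hg): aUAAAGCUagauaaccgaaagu
miR-125b-5p, in 2610203C20Rik (Mir100hg): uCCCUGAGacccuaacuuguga
miR-15a-5p, in Dleu2: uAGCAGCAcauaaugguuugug
miR-16-5p, in Dleu2: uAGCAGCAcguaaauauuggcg
miR-101a-3p, in E130102H24Rik: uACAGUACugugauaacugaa
miR-1839-5p, in 2900076A07Rik: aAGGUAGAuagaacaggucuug
miR-1897-3p, in Sox2ot: uCAACUCGuucuguccggugag
Only the pair in Dleu2 shared a seed, AGCAGCA, among these 8. A second family lay in A230057D06Rik, whose span held 5 rows of the miR-344 family. Of its 3p arms, miR-344-3p (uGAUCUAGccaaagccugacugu) and miR-344c-3p (uGAUCUAGucaaagccugacagu) shared one seed, and miR-344e-3p (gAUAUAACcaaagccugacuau) and miR-344d-3p (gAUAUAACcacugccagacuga) shared another. Mir124a-2 lay in 2610100L16Rik (Mir124-2hg), Mir5117 in Gas5 and Mir1949 in Snhg4.

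Malat1, the abundant RNA of nuclear speckles, stood far above all other members. In ULAs of brains 1, 2 and 3 it reached 3887, 5237 and 3465 RPKM, and it reached 5101, 4644 and 4464 in the DLAs. It made up 34.3 to 43.9% of the summed RPKM of the members in each library, and all members together held 3.25 to 4.49% of the reads in the table. The next was D030047H15Rik, at a mean of 405.9 RPKM, which runs antisense to Ttyh1, a gene for a membrane protein of glia. The ratio of D030047H15Rik to Ttyh1 stayed between 1.22 and 1.27 in all libraries. Only 11 members reached 100 RPKM and 32 reached 50, whereas 136 lay from 10 to 50 and 86 from 5 to 10. The other 8 of the 10 highest were 4930471I20Rik (present name Acss2os, 354.0), 1700010K23Rik (296.7), Gm10677 (177), R74862 (148), C030037D09Rik (145), the row named Bc1 (134, which does not lie at the Bc1 gene), 1700071M16Rik (113) and Gm11602 (Ino80dos, 107). Of the 10, all but Malat1, C030037D09Rik and the Bc1 row share exon bases with a coding row on the other strand. The libraries keep no strand, so the levels of those members can include reads of the coding gene. Even coverage of Pla2g7 alone would put 127.5 RPKM on 1700071M16Rik. At the threshold, 1700086O06Rik (5.08), 4930565N06Rik (5.06) and BC025920 (5.01) were the last taken, and H2-K2 (4.99), Gm11944 (4.92) and 0610005C13Rik (4.88) the first left out. Below it, 287 eligible rows had a mean of 1 to 5 RPKM and 447 were listed at 0 in all 6 libraries.

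Most of the members are little-studied transcripts. A clone or predicted-gene symbol was carried by 223 of them. Of the 239 members matched by identifier to the RefSeq annotation of GRCm38.p6, 224 are now long non-coding RNAs, 13 are transcribed pseudogenes, 1 is an antisense RNA and 1 is now listed as protein-coding. Their median length was 1345 bases, from 70 to 6982, and 18 had a single exon.

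Some rows lie where the annotation now puts another gene. The table uses mm9, per the submitters' processing notes, and for 6 members its chromosome was not that of the present RefSeq gene. Gm12191 is a pseudogene on chromosome 11, but its row lay at chr15:34370261-34372988, where 99.6% of its bases were also those of Rpl30, a ribosomal protein gene. Oaz1-ps lay on Oaz1 at chr10:80289441-80291962, Gm12669 on Glrx3 at chr7:144629357-144659663 and Apoo-ps on Apoo at chrX:91612463-91643541, each with 100% of its bases shared. The values of these 4 rows cannot be told apart from those of the parent genes. Bc1, a short neuronal RNA made by RNA polymerase III, has its gene on chromosome 7, whereas its row of 70 bases in 3 exons spanned chr12:92439829-92786285, so its value is not taken as a level of Bc1. Pisd-ps3 is the sixth.

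The library kit keeps no strand, so reads from overlapping genes on opposite strands cannot be told apart. Exon bases were shared with a coding row by 105 members (41.3%), of which 91 lay on the opposite strand and 14 on the same strand. The median shared part was 13.8% of the member's bases. A further 48 started within 2 kb of a coding start on the other strand without sharing an exon, and 74 lay between loci. The remaining 27 overlapped the span of a coding locus without sharing an exon. Among the 27 is Sox2ot, which spans the Sox2 gene rather than lying inside it. In addition, 61 members shared exon bases with other rows of the table that are not coding. Gas5, Neat1 and 2700023E23Rik (Dancr) were each covered wholly by a second row, under an Ensembl identifier, for the same strand.

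In many exon-sharing pairs the member and its coding partner moved together from library to library. Gm16845 shares 11.9% of its bases antisense with Ecsit, a mitochondrial complex I assembly gene, and 7.64% with Zfp653. The ratio of its RPKM to that of Ecsit stayed between 1.12 and 1.14 in the 6 libraries. The coefficient of variation of that ratio was 0.571%, while the counting error of 2 separate sets of reads of this size would give 3.46%. The mean number of reads was 1735 for Gm16845 and 1689 for Ecsit. The ratio thus varied less than separately counted reads would. The same held for 4930549G23Rik against Seh1l (0.835% against 4.49%), a nuclear pore gene, and for Ppifos against Ppif (0.870% against 3.97%), the gene of mitochondrial cyclophilin. It also held for Oaz1-ps against Oaz1 (0.502% against 6.97%), where both rows cover the same bases.

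Over all pairs with a tested partner, the ratio varied less than counting error in 17 of 89 exon-sharing members that had no base on the partner's strand, and in 5 of 13 that had some. It did so in 1 of 48 members that started within 2 kb of a coding start and in 1 of 56 between loci. It also did so in 1 of 24 that overlapped a coding locus without a shared exon. The median coefficient of variation of the ratio was 8.28% for the 89 antisense members and 12.65% for the 24 that overlapped a coding locus. It was 20.4% for the 48 that started beside a coding gene and 21.0% for the 56 between loci. The members' own levels varied by 14.2%, 16.13%, 15.5% and 17.7%. If coding reads were spread evenly along the mRNA, those falling on the shared bases would come to a median of 13.98% of the level of the 105 members. They would exceed 50% in 20 members, and in 3 they would exceed the whole level: 4930414L22Rik (with Mat2a), Gm16062 (with Cops3) and 1700071M16Rik (with Pla2g7). For a member that tracks its partner this closely, the values of both transcripts cannot be told apart.

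The layer comparison asks whether a transcript's level differs between the upper and deep layers of the same brain. Differences are given as ULA minus DLA on the scale of log2(RPKM + 1), with a standard error (SE) from limma, which fitted layer and brain to the 13999 rows with a mean of at least 1 RPKM. Adjusted p-values are Benjamini-Hochberg values over all those rows, with a threshold of 0.05. Of the 254 members, 1 was higher in ULAs and 3 were higher in DLAs, which is 1.57% of them, beside 1.63% of all rows tested in either direction (0.714% higher in ULAs and 0.914% higher in DLAs). The share of members that passed was thus close to that of all rows.

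**Figure D1:**
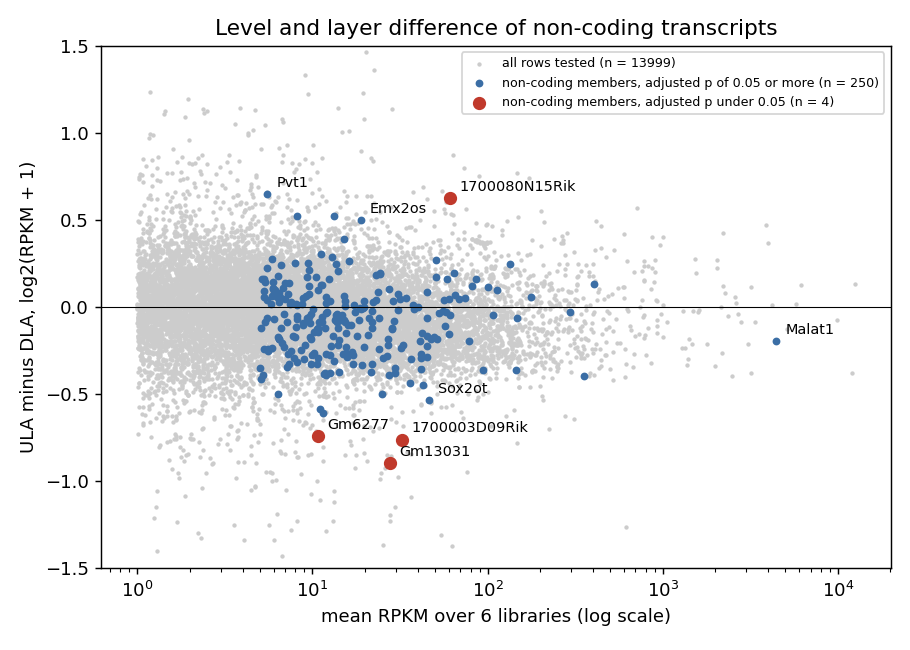
Mean level over the 6 libraries (RPKM, log scale) against the ULA minus DLA difference on the log2(RPKM + 1) scale, for all 13999 rows tested (grey), the 250 members that did not pass the test (blue) and the 4 that did (red). The members lie mostly within 0.5 of 0, and 3 of the 4 that passed lie below the line, higher in DLAs (17 grey rows lie beyond the axis limit of 1.5).

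Small differences leaned toward the DLAs. The median difference of the members was -0.07, that of all rows tested -0.03 and that of the coding rows with at least 5 RPKM -0.05, and 243 members (95.7%) lay within 0.5 of 0. Within brains 1, 2 and 3 the members' median was -0.07, -0.09 and -0.13. In all 3 brains, 22 members were higher in ULAs and 85 were higher in DLAs, or 8.66% and 33.5%, beside 15.2% and 23.2% of all rows tested. The values of the layers did not overlap for 8 members higher in ULAs and 44 higher in DLAs, 20.5% of the members together, beside 15.9% of all rows tested (6.59% and 9.27% by direction). At an unadjusted p under 0.05 there were 7 and 46, or 2.76% and 18.1% of the members, beside 5.64% and 10.8% of all rows tested. These counts moved to 14 and 35 with a correction for transcript length (5.51% and 13.8%, beside 5.69% and 8.81% of rows). They moved to 16 and 34 with quantile normalization (6.30% and 13.4%, beside 7.80% and 7.75%). With a correction for transcript length the members' median was -0.003, and that of all rows -0.03.

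Gm13031 had the largest difference of any member. It lies at chr4:140503581-140513817, and 16.1% of its bases are antisense to exons of Padi2, a peptidylarginine deiminase whose substrates include myelin basic protein. Gm13031 was at 16.3, 21.9 and 19.04 RPKM in ULAs, in the order of brains 1 to 3, and at 30.4, 44.6 and 34.7 in the DLAs. The DLAs were higher in every brain and the layers did not overlap. The difference was -0.90 (SE 0.105, adjusted p = 0.003355 by limma), from a mean of 19.1 ± 2.79 to 36.6 ± 7.28 RPKM (SD, n = 3). Padi2 went the same way, from a mean of 6.53 RPKM in ULAs to 15.4 in DLAs (-1.11, adjusted p = 0.002612 by limma). The ratio of Gm13031 to Padi2 ranged from 2.11 to 3.22 (coefficient of variation 16.2%), more than the 5.17% of counting error.

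1700003D09Rik, at chr11:98212032-98219597, shares 11.8% of its bases antisense with Ppp1r1b, which encodes DARPP-32, an inhibitor of protein phosphatase 1. Its values were 23.5, 22.9 and 24.3 RPKM in ULAs and 46.5, 47.7 and 30.2 in DLAs. Those of Ppp1r1b were 23.0, 23.4 and 24.4 in ULAs and 46.1, 48.4 and 29.6 in DLAs. The rows are alike in each library, with a ratio between 0.983 and 1.02, and its coefficient of variation of 1.70% was below the 4.19% of counting error. The difference was -0.76 (SE 0.144, adjusted p = 0.03095) for 1700003D09Rik and -0.75 (adjusted p = 0.03687) for Ppp1r1b by limma. It is therefore not counted as a change separate from that of Ppp1r1b. The adjusted p of 1700003D09Rik was 0.081 without brain 2, 0.08046 with the length correction and 0.08431 by limma without a trended prior.

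Gm6277 lies antisense to Cables1, a substrate of the kinases Cdk5 and Abl, at chr18:11979597-11997886, with starts 104 bases apart and 7.31% of bases shared. It was at 7.93, 9.05 and 6.37 RPKM in ULAs and at 14.1, 15.7 and 11.2 in DLAs. Every DLA value lay above every ULA value, and the difference was -0.74 (SE 0.115, adjusted p = 0.01231 by limma). Cables1 was at 15.83, 13.06 and 12 in ULAs and at 36.5, 15.3 and 23.2 in DLAs (-0.76, adjusted p = 0.05702). Although both differences were alike in size, the ratio of the rows was not steady: it ran from 0.386 to 1.03. Brain 2 had the highest DLA value of Gm6277 and the lowest DLA value of Cables1.

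1700080N15Rik alone passed in the other direction, and it shares no exon with any row. It lies between coding loci at chr2:4053111-4062187, its start 11721 bases from that of Frmd4a, a scaffold protein gene on the other strand. It was at 55.7, 85.1 and 82.5 RPKM in ULAs and at 37.2, 47.1 and 59.2 in DLAs. Each brain had more in ULAs, although the groups overlap because brain 1 was low in both layers. The difference was 0.63 (SE 0.108, adjusted p = 0.01868 by limma), and that of Frmd4a was 0.28 (adjusted p = 0.3306). By limma without a trended prior the adjusted p of 1700080N15Rik was 0.07168.

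These 4 calls rest on the pairing by brain and on the filter. Without the brain term, or with all rows kept whatever their level, no member passed. The adjusted p of Gm13031 then ran up to 0.2845, that of Gm6277 to 0.3001, that of 1700080N15Rik to 0.3914 and that of 1700003D09Rik to 0.4172.

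**Figure D2:**
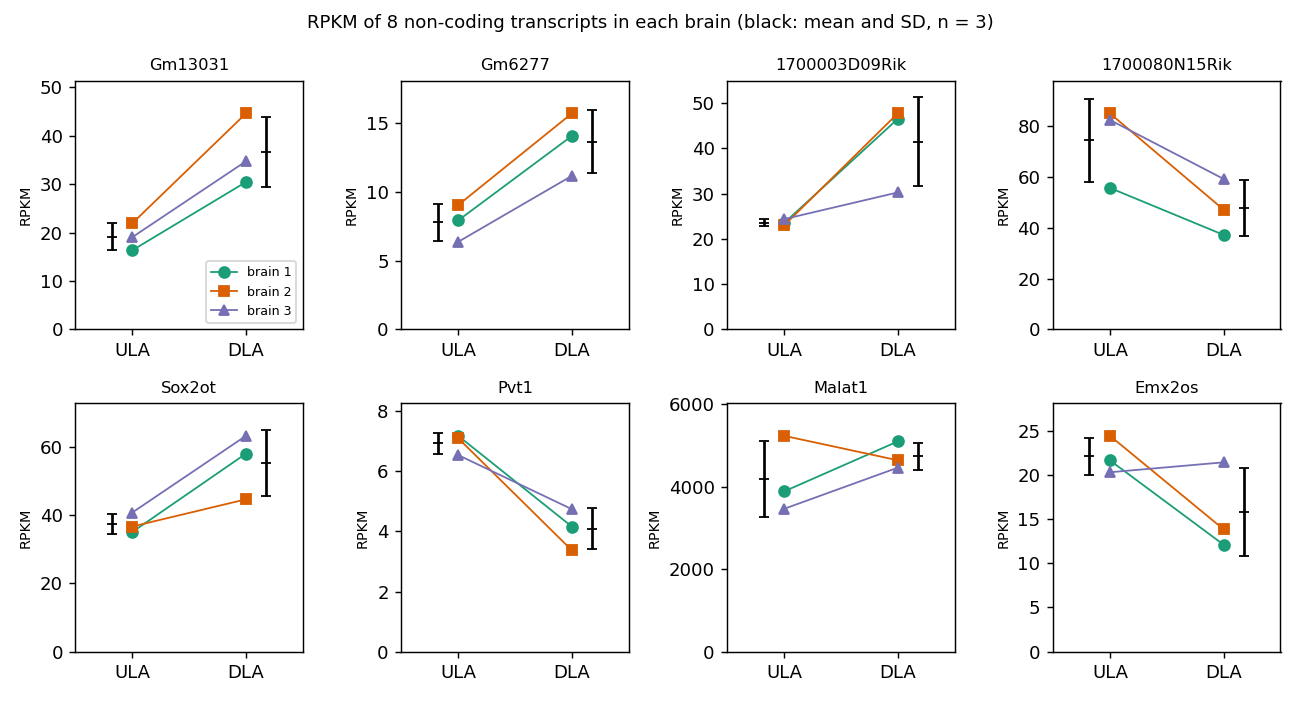
RPKM (vertical axis, starting at 0) of 8 members in ULAs and DLAs, with a coloured line for each of the 3 brains and the mean and SD of each layer (n = 3) in black. Gm13031, Gm6277 and 1700003D09Rik rise from ULAs to DLAs in every brain, 1700080N15Rik falls in every brain, and for Malat1 and Emx2os 1 brain goes against the other two.

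Sox2ot and A330048O09Rik were higher in the DLAs of every brain but did not pass. Sox2ot, the long transcript that spans the gene of the stem-cell factor Sox2, was at 35.0, 36.6 and 40.7 RPKM in ULAs and at 57.9, 44.6 and 63.2 in DLAs. The layers did not overlap, and the difference was -0.54 (SE 0.114, adjusted p = 0.05128 by limma). Its partner Sox2 was at 13.9, 14.8 and 19.1 in ULAs and at 37.0, 14.4 and 34.2 in DLAs (-0.71, adjusted p = 0.1399), with brain 2 alone showing no excess in the DLAs. A330048O09Rik, whose start is 12458 bases from that of Id4, an inhibitor of basic helix-loop-helix factors, gave -0.58 (SE 0.132, adjusted p = 0.06279), from 8.58 ± 1.18 to 13.5 ± 3.17 RPKM. Id4 itself was higher in DLAs (-0.85, adjusted p = 0.03395 by limma).

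Pvt1, the non-coding neighbour of the growth regulator Myc, was the member with the largest value in favour of ULAs. It was at 7.18, 7.10 and 6.54 RPKM in ULAs and at 4.16, 3.37 and 4.74 in DLAs. No value overlapped, and the difference was 0.65 (SE 0.142, adjusted p = 0.0571 by limma). Myc was at 5.25 RPKM on average in ULAs and 3.51 in DLAs (0.49, adjusted p = 0.1388). Emx2os, which starts opposite the cortical patterning gene Emx2, was at 21.6, 24.4 and 20.3 in ULAs and at 12.1, 13.8 and 21.4 in DLAs. Its difference of 0.50 (SE 0.167, adjusted p = 0.1858) was seen in 2 of 3 brains, brain 3 having slightly more in DLAs. Emx2 gave 0.28 (adjusted p = 0.3183). Sox2ot and Pvt1 each passed in 3 of the 11 alternative analyses and A330048O09Rik in 3, with leaving out brain 3 among them in each case.

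Of the remaining members with a difference in the same direction in every brain, the largest toward DLAs were 1700120C14Rik (-0.61, adjusted p = 0.0571), Apoo-ps (-0.50, adjusted p = 0.1613) and LOC100504703 (-0.50, adjusted p = 0.09787). 1700120C14Rik shares 25.8% of its bases antisense with Mcrs1, which starts 174 bases away and gave -0.14 (adjusted p = 0.6397). Apoo-ps lies wholly on Apoo, which gave -0.28 (adjusted p = 0.3631). Toward ULAs they were 2410006H16Rik (0.52, adjusted p = 0.1008), F730043M19Rik (0.52, adjusted p = 0.1035), Gm20605 (0.30), A630089N07Rik (0.29), 4930506C21Rik (0.27) and D4Ertd617e (0.25), all from the same limma fit. Gm20605 shares 91.7% of its bases on the same strand with coding rows, chiefly Lrch4 (0.26), and D4Ertd617e shares 74.9% with Ebna1bp2 (0.02). 4930506C21Rik shares 10.9% antisense with Mpc1 (0.03) and 1.64% with Sft2d1 (0.12). 2410006H16Rik holds Snord49a, Snord49b and Snord65, which guide methylation of ribosomal RNA. It was at 9.56, 8.02 and 12.01 RPKM in ULAs and at 5.61, 6.72 and 7.18 in DLAs, with no overlap.

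Among the nuclear architectural RNAs, 4 were members and none passed. Malat1 gave -0.19 (SE 0.124, adjusted p = 0.4675 by limma), with the DLAs higher in brains 1 and 3 and the ULAs higher in brain 2. Neat1, the scaffold of paraspeckles, was at 20.5, 14.4 and 8.55 RPKM in ULAs and at 15.4, 18.2 and 10.8 in DLAs, so that brain 3 was the lowest in both layers and the layers overlapped (-0.08, adjusted p = 0.8494). Tug1 gave 0.14 and 6720401G13Rik (Firre), an X-linked RNA that organises chromatin contacts, gave 0.13 (12.57, 11.85 and 11.15 RPKM in ULAs and 11.04, 11.01 and 10.2 in DLAs). Malat1 passed in 1 of 11 alternatives, without brain 2 (-0.38, adjusted p = 0.03094 by limma).

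The coding list of paraspeckle and speckle proteins had 13 rows tested and 1 that passed. This was Srsf2, a splicing factor of the SR family, at 60.2, 22.6 and 59.0 RPKM in ULAs and 155.9, 29.0 and 130.7 in DLAs (-0.95, adjusted p = 0.02232 by limma). Brain 2 was the lowest in both layers. Srsf2 did not pass without the brain term, with no filter, with quantile normalization, with the length correction or by limma without trend. The median of the list was -0.04.

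The list of host genes of small nucleolar RNAs, which are spliced transcripts whose introns hold the small RNAs, gave 10 members and no call. Their differences ran from -0.35 for Snhg3 to 0.21 for Snhg1, with a median of -0.07. Gas5, the highest of them, was at 34.7, 33.6 and 36.6 RPKM in ULAs and at 32.6, 29.7 and 39.5 in DLAs. Its layers overlapped, and the difference was 0.05 (SE 0.106). Snhg3 was at 28.0, 26.3 and 23.5 in ULAs and at 34.6, 37.1 and 28.7 in DLAs, without overlap (SE 0.105, adjusted p = 0.1424 by limma), and 79.4% of its bases were also in an antisense row under an Ensembl identifier. Snhg7 (-0.26), Snhg10 (-0.29) and Gm11974 (Snhg15, -0.17) were also higher in the DLAs of each brain, and Snhg6 (0.07) in the ULAs of each. Snhg4 (0.06), Snhg5 (0.03) and 2700023E23Rik (Dancr, -0.33) complete the list. Hosts found by position but not on the list were 2410006H16Rik (0.52, outside this range), AA465934 and 1110038B12Rik, and none of them passed. Of 9 coding genes for proteins of small nucleolar ribonucleoproteins, none passed, with differences from -0.28 to 0.31. None of 10 genes of nonsense-mediated decay, the pathway that degrades many host transcripts after splicing, passed either (-0.16 to 0.14).

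None of the microRNA hosts passed. C130071C03Rik, listed as a host of miR-9 although the table puts no microRNA row within it, was at 45.8, 56.9 and 61.5 RPKM in ULAs and at 50.8, 42.4 and 78.0 in DLAs (-0.02, SE 0.140). Dleu2, the host of miR-15a and miR-16, whose shared seed is printed above, was at 51.2, 58.2 and 52.1 in ULAs and at 48.1, 42.2 and 53.1 in DLAs (0.17, SE 0.117). AI854517, the host of miR-9, was at 23.7, 25.5 and 16.5 in ULAs and at 28.3, 28.2 and 21.1 in DLAs, higher in the DLAs of each brain but overlapping (-0.24, adjusted p = 0.2969 by limma). 2610100L16Rik (Mir124-2hg) gave -0.03. Both rows of Mir100hg, the host of miR-125b, went in opposite directions without passing: 3110039I08Rik gave 0.27 (SE 0.140) and 2610203C20Rik gave -0.07 (SE 0.128). E130102H24Rik, the host of miR-101a, was at 10.4, 9.74 and 7.70 in ULAs and at 13.4, 11.6 and 10.6 in DLAs. Its layers did not overlap, but the difference of -0.33 (SE 0.117) had an adjusted p of 0.2108 by limma. Of 13 coding genes of microRNA processing, none passed (-0.07 to 0.27).

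**Figure D3:**
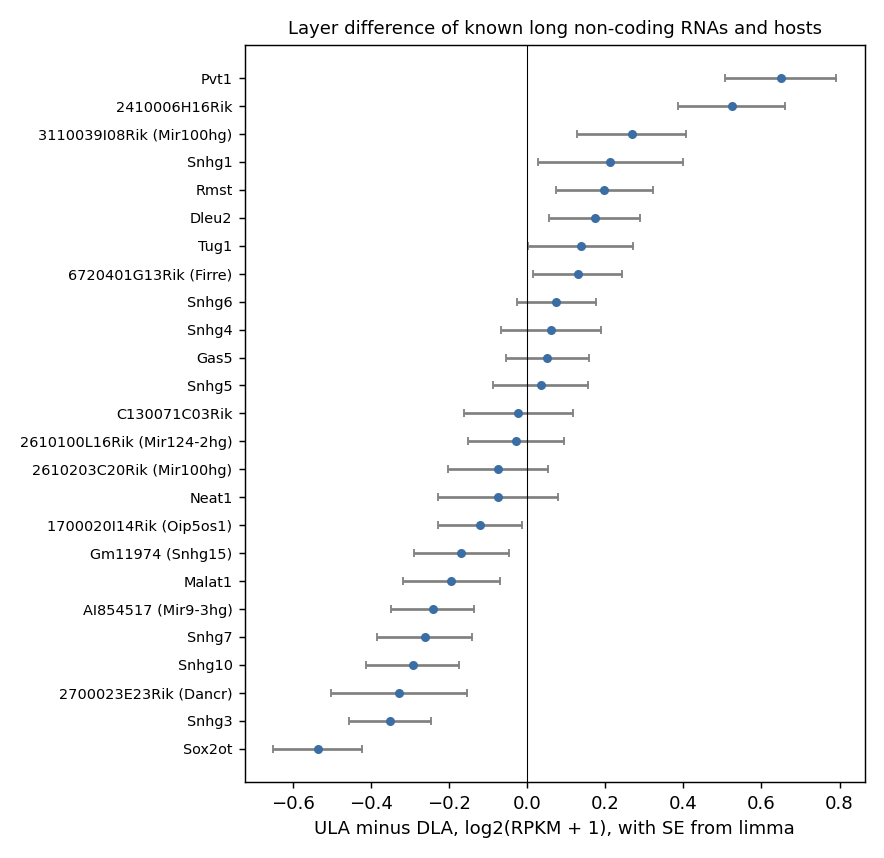
ULA minus DLA difference on the log2(RPKM + 1) scale (points) with its SE from limma (bars) for 25 known long non-coding RNAs and small RNA hosts, ordered by difference. Sox2ot lies lowest at -0.54 and Pvt1 highest at 0.65, and none of the 25 passed the test.

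The regulatory RNAs on the list gave 4 members, Sox2ot and Pvt1 described above, Rmst and 1700020I14Rik (Oip5os1, also called Cyrano). Rmst, a partner of Sox2 in neural differentiation, was at 67.3, 73.3 and 65.2 RPKM in ULAs and at 57.0, 51.9 and 71.7 in DLAs (0.20, SE 0.125, adjusted p = 0.4647 by limma). It was higher in the ULAs of brains 1 and 2 and in the DLAs of brain 3. 1700020I14Rik gave -0.12. Thus none of the list members from the architectural, small RNA host and regulatory groups passed, beside 1.63% of all rows.

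The layer differences of exon-sharing members were close to those of their partners. Across the 102 exon-sharing members with a tested partner, Pearson's r between both differences was 0.817 (Spearman's rho 0.742), the signs were the same in 80 pairs, and the median gap was 0.05. Across the 48 members that start beside a coding gene without sharing an exon, r was 0.325 (rho 0.262), with the same sign in 26 and a median gap of 0.23. Across the 24 members that overlap a coding locus without sharing an exon, r was 0.761 (rho 0.663). The sign was the same in 17 and the median gap was 0.099. Sox2ot and Sox2 (-0.54 and -0.71) are among these pairs. A high r was thus not limited to members that share exons, but the gap was wider than in exon-sharing pairs. The cause of the likeness was not tested in any class. The r values are correlations across genes, which are not independent replicates. The points share the 6 libraries and, in the first class, reads. For example, 4930471I20Rik gave -0.40 and Acss2, an acetyl-CoA synthetase on the other strand, gave -0.39, with a ratio of 2.10 to 2.21 in the 6 libraries. C030037D09Rik, which starts 375 bases from the RNA-binding protein gene Msi2 and shares no exon with it, was at 117, 142 and 121 RPKM in ULAs and at 146, 187 and 158 in DLAs (-0.36, adjusted p = 0.09316 by limma), while Msi2 gave 0.13 (adjusted p = 0.6518). The layers of C030037D09Rik did not overlap. Among the 149 members that share no exon with a coding row, 1 passed, toward ULAs (0.671%, beside 1.63% of all rows tested).

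**Figure D4:**
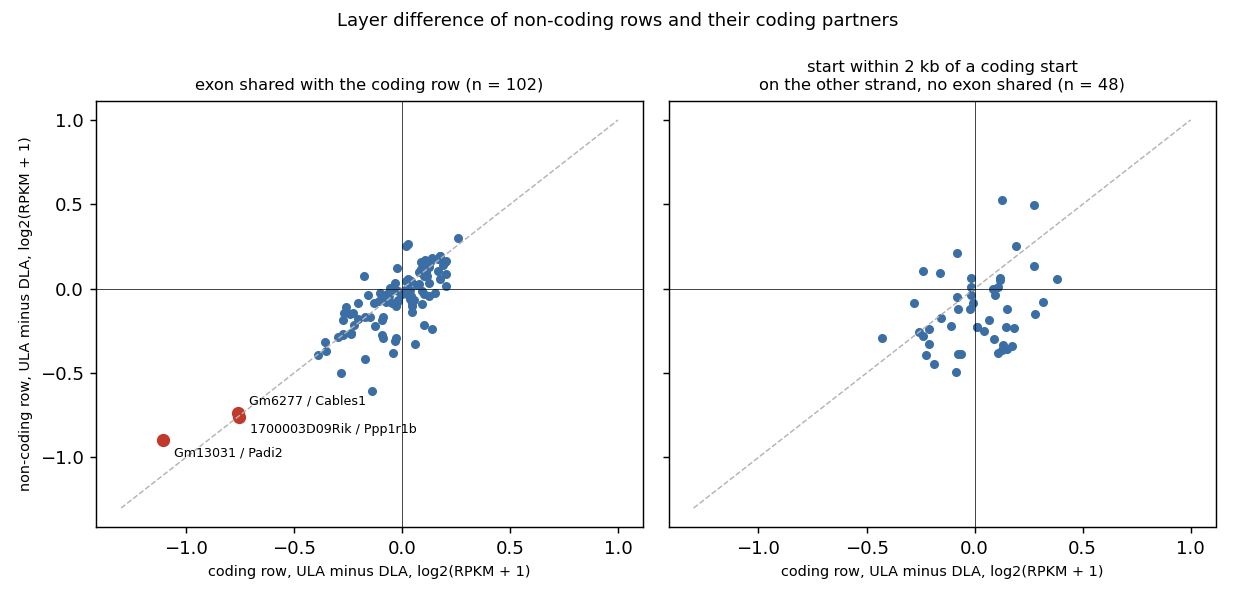
ULA minus DLA difference of the coding partner (horizontal axis) against that of the member (vertical axis), both on the log2(RPKM + 1) scale, for 102 members that share an exon with the partner (left) and 48 that start within 2 kb of it on the other strand (right). The dashed line marks equal differences: the points follow it on the left (r = 0.817), where the 3 members higher in DLAs are marked in red, and scatter on the right (r = 0.325).

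Some members differed widely between brains. The range of the brain means had a median of 0.26 on the log2 scale over the 254 members. In 4 members it was above 1. 4930473A02Rik, antisense to the phosphatase gene Ptpra, was at 55.8, 24.4 and 50.9 RPKM in ULAs and at 68.5, 25.2 and 58.9 in DLAs. A230056P14Rik, antisense to Nipa1, was at 46.1, 24.8 and 48.2 in ULAs and at 50.6, 26.1 and 56.9 in DLAs. Both were lowest in brain 2 in either layer. G530011O06Rik was instead highest there, at 7.07, 12.3 and 5.36 in ULAs and at 7.80, 15.5 and 6.35 in DLAs. 4930515L03Rik was at 65.7, 112 and 32.4 in ULAs and at 56.9, 78.5 and 46.3 in DLAs, highest in brain 2 and lowest in brain 3. The layer differences of these 4 members ran from -0.22 to 0.07, and none passed. No brain was the lowest for most members: brain 1 was lowest for 95, brain 2 for 70 and brain 3 for 89. 1700010K23Rik, which shares 68.1% of its bases antisense with Cadm2, was at 290.9, 263 and 289.4 in ULAs and at 407.9, 154 and 375 in DLAs. Its DLA value was far lower in brain 2 than in the others, and its difference of -0.03 (SE 0.201) became -0.43 (adjusted p = 0.04029 by limma) without that brain.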

How the data were processed

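The authors deposited 1 table of RPKM values per annotated transcript row for 6 libraries, made from single-end reads of 36 bases. Per the labels, the genome was mm9 and the tools bcl2fastq 1.8.4 and CASAVA 1.8.2. The read counter and its handling of overlapping rows are not given in the sources used here. The kit (SMART-Seq v4 with Nextera XT) keeps no strand. Depth was derived from the steps of the deposited RPKM values, of which 98.4% to 100% came out as whole reads in rows of up to 500 bases, within the 0.01 reads per 1e6 to which the values were truncated (at most 68.0% for the next best depth), and served for precision only.

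The 13999 rows that averaged 1 RPKM or more were tested with limma 3.58.1 in R 4.3.3 on log2(RPKM + 1), with a trended prior, layer and replicate number in the model, two-sided, and Benjamini-Hochberg adjustment over all rows. The fit was tested on simulated data. Deviations from the mean of each layer went together in libraries of 1 number (r = 0.42, 0.33 and 0.34 over all rows, and between -0.20 and -0.16 for different numbers), so the numbers were taken to pair the libraries.

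The members and gene lists were chosen with earlier results of these data known. The genes named are the 10 highest, those passing, the 8 largest per direction with 3 of 3 brains alike, the members of the lists, and those at the level threshold, with their coding neighbours. Other members named, among them Emx2os, the microRNA hosts found by position and those cited for their partner ratio or brain differences, were chosen after their values were seen. Overlaps were computed on the table's own exons. Counting error of a ratio was the square root of the mean sum of the reciprocal read numbers of both rows. Alternatives were another pseudocount, no filter, a minimum of 5 RPKM, median centring, quantile normalization, a length correction, no trend, no replicate block, and each replicate left out. Leaving out members that share an exon with a coding row was added after seeing the data.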

Additional observations from a re-analysis of the deposited data

How the results depend on the processing

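Against 1 member higher in ULAs and 3 higher in DLAs, the counts were 0 and 0 without the replicate block (beside 0.164% and 0.129% of all rows tested in that fit) and 0 and 0 with no filter on low values (no row of the table passed). They were 2 and 7 with a minimum of 5 RPKM (0.787% and 2.76% of members, beside 1.08% and 1.62% of rows). They were 2 and 3 with median centring (beside 0.77% and 0.84% of rows) and 1 and 2 with the length correction (beside 0.52% and 0.61%). By limma without trend they were 0 and 2 (beside 0.46% and 0.56%). With 1 replicate left out they ran from 1 to 8 higher in ULAs and from 5 to 13 higher in DLAs. Without replicate 1 they were 1 and 5 (0.394% and 1.97%, beside 0.743% and 0.900% of rows). Without replicate 2 they were 2 and 5 (0.787% and 1.97%, beside 0.793% and 1.3%). The most were without replicate 3, where 3.15% and 5.12% of members passed, beside 3.04% and 4.91% of all rows. At an unadjusted p under 0.05 by limma there were 5 and 35 members without the block (1.97% and 13.8%, beside 3.78% and 6.29% of rows) and 6 and 47 with no filter (2.36% and 18.5%, beside 4.02% and 5.99%). There were 14 and 35 with the length correction (5.51% and 13.8%, beside 5.69% and 8.81%). There were 16 and 34 with quantile normalization (6.30% and 13.4%, beside 7.80% and 7.75%). The counts were 4 and 23 without replicate 1 (beside 3.079% and 4.793% of rows) and 12 and 44 without replicate 2 (beside 5.593% and 8.508%). Without replicate 3 they were 20 and 51 (beside 8.465% and 14.16%). With members that share an exon with a coding row left out, 1 and 0 of 149 passed (0.671% toward ULAs, beside 0.714% and 0.914% of all rows tested). The members' median difference moved from -0.0692 to -0.0031 with the length correction and stayed within 1 SD of the per-brain medians in the other alternatives. Among the lists of coding genes for proteins that act with non-coding RNAs, the 1 that passed, Srsf2, left a count of 0 without the block, with no filter, with quantile normalization, with the length correction and by limma without trend. The cause of these changes was not tested. Gm13031 and Gm6277 passed in 9 of 11 alternatives, 1700080N15Rik in 8 and 1700003D09Rik in 6.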
